A study of Mus musculus with 36 samples.

Results

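Motile cilia of the airway surface are built by multiciliated epithelial cells, and the transcripts of 10 genes that mark these cells (Foxj1, Dnah5, Dnah9, Ccdc39, Ccdc40, Rsph1, Spag17, Hydin, Tekt1 and Tppp3) were followed here in RNA of cells recovered by lung lavage. Each gene was read from the array feature annotated with its symbol alone, taking the feature of highest mean where there were several. Of the 10 genes, 9 had such a feature among the 28940 analysed features. The only feature of Ccdc39, which encodes a ruler protein that sets the spacing of the inner dynein arms, also carries the symbol of another gene, so that no value is given for it.

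The 36 Affymetrix Mouse Gene 1.0 ST arrays held RNA of lavage cells from male C57Bl/6N Tac mice that carry a Scnn1b transgene (Scnn1b-Tg, here Tg) and from their wild-type (WT) littermates. Scnn1b encodes a subunit of the sodium channel ENaC, which the promoter of the club cell gene Scgb1a1 drives in airway club cells, and the airways of these mice become dehydrated and obstructed by mucus. Lavage was done on postnatal day (PND) 0, 3, 10 or 42 under specific-pathogen-free conditions (SPF), and on PND 42 also in a germ-free colony (GF), with 3 arrays per genotype at PND 0 and in GF housing and 4 per genotype in each other group. An array held the pooled cells of 3 pups at PND 0, 3 and 10 and the cells of 1 mouse at PND 42. In all groups the lavage cells had been depleted of Ly-6G-positive cells by magnetic sorting to leave macrophages, a step that does not remove epithelial cells. In such bulk RNA, fewer cells of a type and less RNA per cell cannot be told apart.

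The axoneme of a motile cilium holds 9 outer doublet microtubules around a central pair. Outer and inner dynein arms on the doublets slide them against each other, radial spokes and the central pair apparatus regulate that sliding, and the beat moves mucus out of the airways. The program is switched on by Foxj1 together with RFX transcription factors, which bind X-box motifs in the promoters of cilium genes. Loss of many of these genes causes primary ciliary dyskinesia. Macrophages carry no motile cilia.

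Promoter windows, from 250 bases before to 50 bases after a transcript start (RefSeq, GRCm38.p6), were found for 7 of the 10 genes, in 8 windows. The letters GTTGCC (on the other strand GGCAAC), one arm of the X-box, stood in windows of 2 of these 7 genes, Tekt1 and Hydin, and in 12.5% of all 32851 windows of this length. The forkhead letters GTAAACA (other strand TGTTTAC) stood in 0 of the 8 windows and in 3.65% of all windows. The pair of windows with GTTGCC or GGCAAC is shown because none of the other windows searched holds letters of either motif; Foxj1, Rsph1 and Tppp3 had no window to search. Capitals mark them, and they begin 35 and 15 bases before the start of Tekt1 (a minus-strand transcript, chr11:72361833-72362132) and 13 bases before that of Hydin (plus strand, chr8:110266727-110267026). A match of letters is a description of the window and not a bound site.
Tekt1: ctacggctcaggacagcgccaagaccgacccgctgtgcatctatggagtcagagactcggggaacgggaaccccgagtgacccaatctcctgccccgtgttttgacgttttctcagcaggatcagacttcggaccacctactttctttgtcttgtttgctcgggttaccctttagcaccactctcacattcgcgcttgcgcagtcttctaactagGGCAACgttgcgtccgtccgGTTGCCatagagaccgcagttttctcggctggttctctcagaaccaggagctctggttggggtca
Hydin: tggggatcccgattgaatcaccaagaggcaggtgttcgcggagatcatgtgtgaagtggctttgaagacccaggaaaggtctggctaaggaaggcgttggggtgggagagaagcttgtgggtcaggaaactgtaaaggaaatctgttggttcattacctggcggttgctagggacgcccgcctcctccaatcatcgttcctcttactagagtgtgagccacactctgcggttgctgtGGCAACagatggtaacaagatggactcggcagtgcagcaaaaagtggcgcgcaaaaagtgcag

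The log2 intensities of single arrays had medians between 3.72 and 4.06, and a gene whose group mean lies within or below that range is called near background here. Every array has as many features below its own median as above it, so that many features of any group are near background by this rule. The pan-leukocyte gene Ptprc had group means of 8.35 to 10.2 and the macrophage gene Cd68 of 11.1 to 11.8, and the mean of 16 alveolar macrophage genes lay between 8.33 and 10.4 in the 36 arrays. The spread within groups was larger at PND 0 (SD relative to all groups 1.48 for WT and 1.39 for Tg) than in the other groups (0.757 to 0.944). Scnn1b itself read 10.2, 10.3 and 5.47 in the 3 arrays labelled Tg at PND 0, against 4.06 to 6.68 in WT, so that the library labelled Tg, replicate 3, goes against its label at this gene. At PND 3 all 4 Tg arrays (5.37 to 6.03) lay above the WT arrays (3.09 to 3.55). At PND 10 Tg replicate 1 read 3.26, within the WT range of 3.10 to 3.35, and the other Tg arrays read 3.94 to 4.10. At PND 42 Scnn1b was near background in both genotypes. Counts and calls that rest on the library labelled Tg, replicate 3, at PND 0 are therefore also given without it. Nothing in the labels says whether same-numbered arrays share a litter. SE, confidence intervals and p-values use 1 spread per feature, pooled over the arrays of the 10 groups. Each measured transcript except Tppp3 varied more in both PND 0 groups than in any later group. Dnah5, for one, had an SD of 1.17 in WT and 0.80 in Tg at PND 0, against 0.0098 to 0.12 later. For these transcripts the pooled spread understates that at PND 0 and overstates that of most later groups.

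All 9 measured transcripts were above background in at least part of the PND 0 arrays, and all 9 were lower at PND 3 in WT mice, with log2 changes of -3.27 to -1.03, and in Tg mice, with changes of -3.13 to -1.07 (limma, adjusted p from 1e-10 to 0.00237 in WT and from 1.71e-10 to 0.000205 in Tg). The largest falls were those of Rsph1, 9.65-fold in WT and 8.74-fold in Tg. For comparison, 12.0% of the analysed features were called lower over the same step in WT and 14.0% in Tg, and the median change of all features was 0.002 and 0.04. Every PND 3 array lay below every PND 0 array of its genotype for all 9 transcripts in both genotypes, against 12.7% of the features in WT and 13.4% in Tg. The plot of the transcripts by array shows this step and what followed it.

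**Figure D1:**
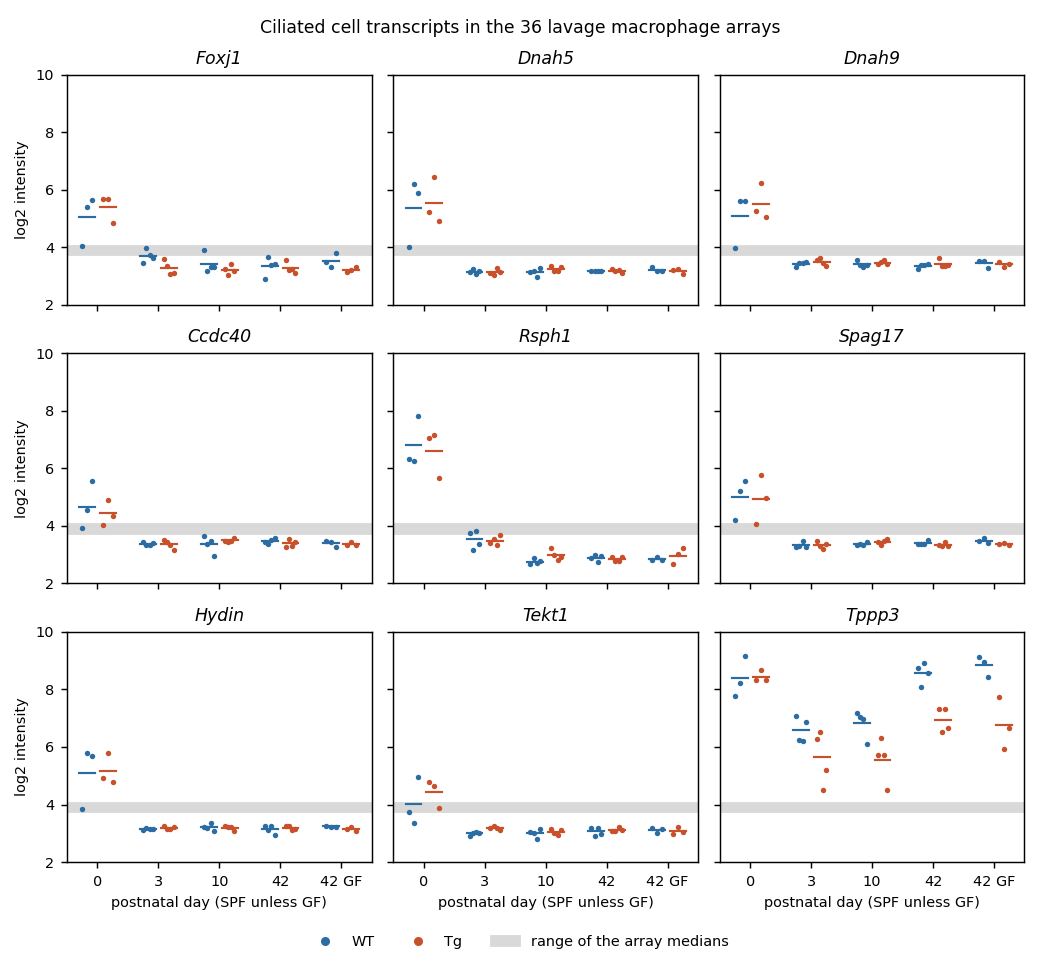
Log2 intensity of the 9 measured ciliated cell transcripts in each array (points) with group means (bars), by postnatal day, in WT (blue) and Tg (orange); the grey band is the range of the array medians, 3.72 to 4.06. For 8 transcripts all arrays after PND 0 lie within or below the band, while Tppp3 stays above it in all groups.

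Foxj1 (chr11:116330704-116335499 in GRCm38, as all gene positions here), the transcription factor that switches on the motile cilium program, read 4.04, 5.4 and 5.65 in the WT arrays of PND 0 and 5.69, 5.68 and 4.83 in the Tg arrays. At PND 3 it read 3.47 to 3.97 in WT and 3.08 to 3.58 in Tg. The lowest WT array of PND 0 thus lay just above the PND 3 arrays, and the other 5 lay well above them. The log2 change was -1.33 ± 0.26 (SE; 2.51-fold; limma adjusted p = 0.000167) in WT and -2.12 ± 0.26 (4.35-fold; 9.42e-08) in Tg.

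Dnah5 (chr15:28154854-28472045) and Dnah9 (chr11:65831324-66168581) encode heavy chains of the outer dynein arm, the motor that sets beat frequency. Dnah5 read 4.02, 6.19 and 5.89 in WT and 5.22, 6.44 and 4.92 in Tg at PND 0, and 3.08 to 3.23 and 3.04 to 3.28 at PND 3. Dnah9 read 3.98, 5.62 and 5.61 in WT and 5.26, 6.23 and 5.04 in Tg at PND 0, and 3.31 to 3.48 and 3.35 to 3.61 at PND 3. Replicate 1 was the low WT array of both genes, and the groups of the 2 ages did not overlap. Dnah5 changed by -2.22 ± 0.29 (4.64-fold; limma adjusted p = 5.73e-07) in WT and -2.38 ± 0.29 (5.21-fold; 1.13e-07) in Tg. Dnah9 changed by -1.65 ± 0.24 (3.14-fold; 2.95e-06) and -2.02 ± 0.24 (4.06-fold; 6.5e-08).

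Ccdc40 (chr11:119228490-119265248), the partner of Ccdc39 in the ruler that positions inner dynein arms and radial spokes, read 3.91, 4.54 and 5.54 in WT and 4.04, 4.91 and 4.35 in Tg at PND 0, of which the lowest array of each genotype was near background. It fell to 3.32 to 3.45 and 3.18 to 3.51 at PND 3, a change of -1.29 ± 0.21 in WT (adjusted p = 2.01e-05) and of -1.07 ± 0.21 in Tg (0.000205). Rsph1 (chr17:31255019-31277296), a head component of the radial spoke, read 6.31, 6.26 and 7.82 in WT and 7.05, 7.16 and 5.65 in Tg, and changed by -3.27 ± 0.27 and -3.13 ± 0.27. Its 6 arrays of PND 0 all lay at 5.65 or higher, and its 8 arrays of PND 3 at 3.16 to 3.81.

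Spag17 (chr3:99885417-100143322) and Hydin (chr8:110266968-110610253) encode proteins of the central pair apparatus. Spag17 read 4.2, 5.21 and 5.58 in WT and 4.05, 5.75 and 4.96 in Tg, and changed by -1.66 ± 0.23 (adjusted p = 1.5e-06) and -1.59 ± 0.23 (2.25e-06). Hydin read 3.83, 5.78 and 5.68 in WT and 4.91, 5.79 and 4.78 in Tg, and changed by -1.96 ± 0.26 (4.76e-07) and -1.97 ± 0.26 (2.97e-07). Replicate 1 of WT was again the lowest WT array for both, within or just above the range of the array medians, and no array of PND 3 passed 3.48 for either gene.

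Tekt1 (chr11:72344717-72362442), whose product forms filaments inside the doublet microtubules, read 3.75, 3.36 and 4.96 in WT and 4.79, 4.66 and 3.89 in Tg at PND 0. In WT its PND 0 mean of 4.02 ± 0.83 (SD, n = 3) was itself near background, and 1 array carried the level. It changed by -1.03 ± 0.21 in WT (limma adjusted p = 0.0003) and -1.26 ± 0.21 in Tg (1.55e-05). Fitted on the 2 WT groups alone, the WT fall had an adjusted p of 0.0892.

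Tppp3 (chr8:105467492-105471422), a tubulin polymerization promoting protein that bundles microtubules, read 7.78, 8.21 and 9.17 in WT and 8.31, 8.68 and 8.31 in Tg at PND 0. At PND 3 it read 7.08, 6.25, 6.21 and 6.86 in WT and 6.29, 6.53, 4.51 and 5.22 in Tg. The ages did not overlap, but unlike the others Tppp3 was still above background in every PND 3 array. It changed by -1.78 ± 0.44 (3.45-fold; limma adjusted p = 0.00237) in WT and -2.80 ± 0.44 (6.95-fold; 7.35e-06) in Tg.

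**Figure D2:**
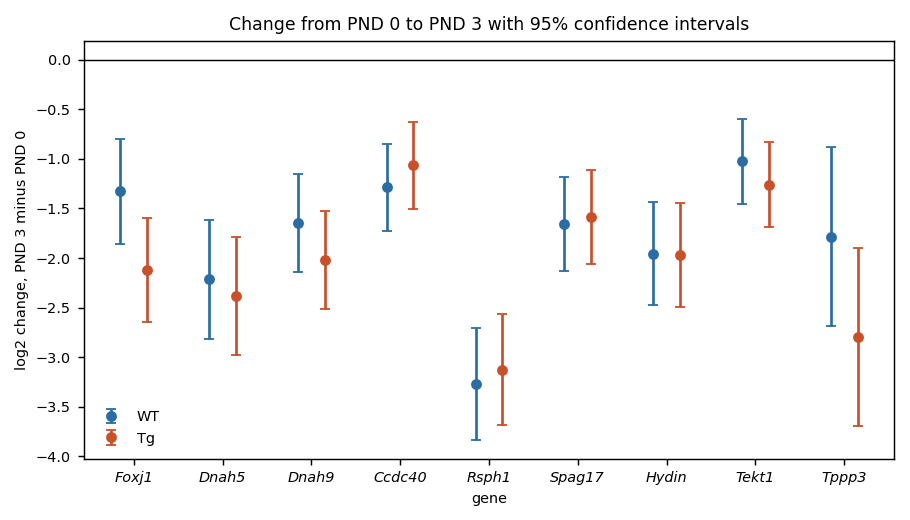
Log2 change from PND 0 to PND 3 of each measured transcript (points) with its 95% confidence interval from limma, in WT (blue) and Tg (orange). The intervals use 1 spread per transcript, pooled over the 10 groups. All 18 intervals lie below 0, from Rsph1 at -3.27 in WT to Tekt1 at -1.03.

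The PND 0 arrays differed among themselves in most of these transcripts at once. WT replicate 1 was the lowest WT array for 7 of the 9 transcripts and replicate 3 the highest for 6, and in Tg replicate 2 was the highest for 7 and replicate 3 the lowest for 6. The mean of the 9 transcripts was 4.65, 5.62 and 6.21 in WT and 5.48, 6.14 and 5.19 in Tg. The mean of 19 general epithelial genes was 6.52, 7.20 and 7.61 in WT, in the same order, and 7.70, 7.68 and 6.96 in Tg, where replicate 3 was again the lowest but replicates 1 and 2 ran the other way. The mean of 16 alveolar macrophage genes was 9.35, 9.20 and 8.79 in WT, the reverse order, and 8.33, 8.82 and 8.90 in Tg, which was neither the order of the 9 transcripts nor its reverse. Without the library labelled Tg, replicate 3, all 9 transcripts were still called lower in Tg (-3.61 to -1.11). Leaving out WT replicate 1 as well, a choice made after the values were seen, left all 9 called in WT (-3.52 to -1.16). Without WT replicate 3 the WT changes of Tekt1 and Ccdc40 shrank to -0.56 and -0.85, both still called. An exact permutation test of 3 arrays against 4 cannot go below a two-sided p of 0.0571, so that the calls rest on the limma model. Its variance was pooled over the 10 groups in the main fit. Fitted on the compared groups alone, all but Tekt1 were still called in WT and all 9 in Tg.

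After PND 3 the levels of 8 of the 9 transcripts did not move by a called amount. In all 30 arrays after PND 0 each of the 8 lay within or below the range of the array medians: 2.89 to 3.97 for Foxj1, 2.97 to 3.33 for Dnah5, 3.26 to 3.61 for Dnah9, 2.66 to 3.81 for Rsph1, 3.2 to 3.58 for Spag17, 2.96 to 3.65 for Ccdc40, 2.95 to 3.36 for Hydin and 2.79 to 3.27 for Tekt1. Of the levels at or near background in the 8 later groups no order is given. The arrays carry no detection call, and the falls of these 8 transcripts may understate the true change, since the later level is near background.

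From PND 3 to PND 10, 0 of the 9 transcripts were called in WT (1 at an unadjusted p under 0.05; 0.131% of all features called) and 0 in Tg (0 unadjusted; 1.45%). The 1 transcript was Rsph1, which read 3.16 to 3.81 at PND 3 and 2.66 to 2.88 at PND 10 in WT (change -0.77 ± 0.25, limma adjusted p = 0.411). With arrays weighted by quality (-0.74, adjusted p = 0.0427) or by the variance of their group (-0.77, 0.034), that step of Rsph1 was called. From PND 10 to PND 42, 1 of 9 was called in each genotype, against 2.5% of the features in WT and 4.61% in Tg, and it was Tppp3 both times.

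Tppp3 read 7.20, 7.06, 6.98 and 6.09 in WT at PND 10 and 8.75, 8.07, 8.93 and 8.57 at PND 42, a rise of 1.75 ± 0.41 (3.36-fold; limma adjusted p = 0.0138). In Tg it read 5.73, 6.30, 5.73 and 4.49 at PND 10 and 7.31, 6.52, 7.33 and 6.64 at PND 42, a rise of 1.39 ± 0.41 (2.62-fold; 0.0445). The 2 ages did not overlap in either genotype, and the 4 WT arrays of PND 42 lay within the range of the WT arrays of PND 0. The WT rise was no longer called without WT PND 10 replicate 4 (adjusted p = 0.0743) or WT PND 42 replicate 3 (0.0577). The Tg rise was no longer called when any of 13 arrays was left out: Tg PND 10 replicates 1, 3 or 4, Tg PND 42 replicates 1, 3 or 4, or an array of another group (WT PND 3 replicate 4, WT PND 10 replicates 2 or 3, WT PND 42 replicates 1 or 4, WT GF replicates 1 or 2), with adjusted p from 0.0502 to 0.214.

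Between genotypes, Tppp3 again stood alone among the 9. At PND 42 all 4 Tg arrays in SPF housing (6.52 to 7.33) lay below all 4 WT arrays (8.07 to 8.93), a difference of -1.63 ± 0.41 (3.09-fold; limma adjusted p = 0.014). In GF housing the Tg arrays read 7.72, 5.93 and 6.65 and the WT arrays 9.13, 8.97 and 8.45, a difference of -2.08 ± 0.47 (4.23-fold; 0.00569). Of all features, 4.49% were called between genotypes in SPF mice and 4.91% in GF mice at this age.

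At PND 0, 3 and 10 the difference of Tppp3 between genotypes was not called: 0.05 ± 0.47 at PND 0, -0.97 ± 0.41 at PND 3 (limma adjusted p = 0.254) and -1.27 ± 0.41 at PND 10 (0.139; called with array weights, at -1.41 and 0.0355). At PND 3, 2 of 4 Tg arrays lay below every WT array, and at PND 10 3 of 4 did. The change of the genotype difference from PND 0 to PND 42, a contrast added after the values were seen, was -1.68 ± 0.62 and not called (0.138; 4.51% of features called). Without WT PND 0 replicate 3 it was called, at -2.07 (0.0455). Housing did not change the difference by a called amount either (-0.45; 0.00346% of features called, also added after the values were seen). The call in SPF mice was lost without WT PND 42 replicate 3 (adjusted p = 0.0546), Tg PND 42 replicate 2 (0.0551) or Tg PND 42 replicate 4 (0.0603), and that in GF mice without Tg GF replicate 2 (0.0617) or in a fit on the 2 groups alone (0.0528).

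In order of level, Tppp3 was highest in WT GF mice (8.85 ± 0.36, SD, n = 3), WT mice at PND 42 (8.58 ± 0.37, n = 4) and both genotypes at PND 0 (Tg 8.43 ± 0.21 and WT 8.39 ± 0.71, n = 3 each), and these 4 neighbours overlapped. Next came Tg at PND 42 (6.95 ± 0.43), WT at PND 10 (6.83 ± 0.50), Tg in GF housing (6.77 ± 0.90) and WT at PND 3 (6.6 ± 0.44), which also overlapped. Tg at PND 3 (5.64 ± 0.94) and PND 10 (5.56 ± 0.76) came last, and their ranges reached into that of WT at PND 3. At PND 42 the other 8 ciliated cell transcripts were near background in all 14 arrays, SPF and GF, in which Tppp3 ranged from 5.93 to 9.13. Over the 36 arrays the Pearson r of Tppp3 with the other 8 was 0.37 to 0.48, while the 28 pairs among those 8 had an r of 0.81 to 0.99. These arrays share the large step after PND 0, and the correlations are descriptions.

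For the other 8 transcripts no comparison of genotype was called. At PND 0, 0 of 9 were called between Tg and WT (limma; 0 at an unadjusted p under 0.05; 4.33% of all features called), with differences of -0.23 to 0.44 and 95% confidence intervals that reach from -0.78 to 0.97 for the 8. At PND 3, 0 of 9 were called (1 unadjusted, Tppp3; 4.05%), and at PND 10, 0 of 9 (1 unadjusted, Tppp3; 1.57%). The genotypes also did not differ by a called amount in the fall from PND 0 to PND 3 (0 of 9 called, 1 unadjusted; 3.27% of features), and the 1 transcript was Foxj1, at -0.79 (adjusted p = 0.289). Without the library labelled Tg, replicate 3, the counts for the difference at PND 0 and for that in the fall stayed at 0 of 9. Without WT replicate 1, Hydin was called lower in Tg at PND 0 (-0.57; adjusted p = 0.0422), and without WT replicate 3, Tekt1 was called higher in Tg (0.89; 0.000582) and its fall larger in Tg (-0.70; 0.0349).

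Some markers of other tissues were called between the genotypes at PND 0, where 792 of all 28940 features were called higher in Tg. Of 13 skeletal muscle genes 11 were called higher in Tg (list mean per array 3.44 to 3.76 in WT and 5.62 to 6.68 in Tg), of 13 fibroblast genes 9 (5.04 to 5.94 and 5.36 to 7.87) and of 11 erythroid genes 7 (3.51 to 3.69 and 3.46 to 6.76). Only the muscle list had every Tg array above every WT array, and the fibroblast and erythroid ranges of the genotypes overlapped. The library labelled Tg, replicate 3, had a muscle mean of 5.62, a fibroblast mean of 7.66 and an erythroid mean of 6.09, and without it 12 muscle, 4 fibroblast and 6 erythroid genes were called. In WT 10 of the 13 muscle genes and 9 of the 11 erythroid genes were near background. The part of these cells in the PND 0 values of the ciliated transcripts was not tested.

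Germ-free housing called 0 of 9 transcripts in WT (limma; 0 at an unadjusted p under 0.05; 0.0657% of all features) and 0 of 9 in Tg (0 unadjusted; 0.142%). The differences of the 8 near-background transcripts lay between -0.09 and 0.20 in WT and between -0.05 and 0.12 in Tg. Tppp3 differed by 0.27 ± 0.44 in WT and by -0.18 ± 0.44 in Tg.

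Other genes of the motile cilium fell with the members. Of 84 further measured genes of 8 cilium lists, 67 were called lower and 1 higher over the first 3 days in WT, and 69 lower and 2 higher in Tg, with 64 lower in both and a median change of -1.21 in each genotype. In WT 21 of the 84 were near background at PND 0 and 71 at PND 3. Without the library labelled Tg, replicate 3, at PND 0, 68 were called lower in WT and 71 in Tg.

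By role, all 12 measured regulators of multiciliogenesis (Foxj1 included) were lower in both genotypes, with medians of -1.07 in WT and -1.15 in Tg. Without the library labelled Tg, replicate 3, at PND 0, 11 of the 12 were called lower in Tg (median -1.17). The largest falls among them in WT were those of Deup1, which builds the deuterosomes that amplify centrioles (-1.96 ± 0.32), of Myb, an early factor of the program (-1.79 ± 0.29), and of the X-box factor Rfx3 (-1.38 ± 0.18). Mcidas, Gmnc, Ccno, Trp73, Foxn4, Rfx2, Ccdc78 and Ulk4 were the others. Rfx2 did not end near background: it read 5.24 in WT at PND 42 and 4.40 in Tg, a difference of -0.84 (limma adjusted p = 0.00626).

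Of 10 measured outer dynein arm genes, 9 were lower in WT and 8 in Tg (median -0.98 and -0.99). Dnah11, whose only feature carries several symbols, was not among them, so that no value is given for it in any comparison. The intermediate chain Dnaic2 (-1.29 ± 0.19) and the docking complex genes Ccdc114 (-1.25 ± 0.16) and Ccdc151 (-1.16 ± 0.15) had the largest falls after Dnah5 and Dnah9. Of 15 genes of the inner arms and the nexin link, 13 and 12 were lower (median -1.42 and -1.21), led in WT by the heavy chains Dnah3 (-4.72 ± 0.58) and Dnah12 (-3.83 ± 0.30) and the light chain Dnali1 (-2.24 ± 0.25). Dnah12 read 5.67, 6.72 and 7.33 in WT and 4.66, 6.61 and 4.71 in Tg at PND 0, a difference of -1.25 ± 0.32 (limma adjusted p = 0.0211) that was not called without the library labelled Tg, replicate 3 (-0.94, 0.12) or without WT replicate 3 (-0.87, 0.0994).

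Of 7 radial spoke genes, 5 were lower in each genotype (median -1.67 and -1.99), among them Nme5 (-3.49 ± 0.24), Rsph4a (-2.80 ± 0.30) and Rsph9 (-1.67 ± 0.26) in WT. Dnajb13, with group means of 5.35 to 6.43, was higher at PND 3 in Tg (0.45 ± 0.14, limma adjusted p = 0.0124) and lower in Tg than in WT at PND 0 (-0.54, 0.0325). Neither was called without the library labelled Tg, replicate 3 (0.119 and 0.151), and the second also not without WT replicate 1 (0.0856). Of 11 central pair genes, 8 were lower in each genotype (median -1.04 and -0.85), with Cfap54 (-2.61 ± 0.25), Ak7 (-2.35 ± 0.23) and Cfap69 (-1.76 ± 0.26) in front, and Ak8, an adenylate kinase, was higher at PND 3 in both (0.78 in WT and 0.82 in Tg, limma adjusted p = 0.00295 and 0.00155). The WT rise of Ak8 was not called without WT replicate 3 of PND 0 (0.57, 0.0529). Ak8 had means of 6.77 in WT and 5.42 in Tg at PND 0, and was lower in Tg at PND 0 (-1.35, 0.000216), PND 3 (-1.31, 2.03e-05) and PND 42 (-0.74, 0.0129 in SPF and -0.85, 0.0124 in GF housing). The PND 0 difference was -1.17 (0.00202) without the library labelled Tg, replicate 3.

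Of 15 genes listed for the doublet microtubules and their inner proteins, 10 were lower in WT and 12 in Tg. Tppp3, which bundles microtubules, was counted in this list. The largest falls in WT were those of Tppp3, Tekt4 (-1.73 ± 0.21), Cfap126 (-1.64 ± 0.31) and Ccdc19 (-1.51 ± 0.28). Cfap126 had a mean of 5.22 in WT at PND 42, above background, while Tekt4 (3.13) and Ccdc19 (3.12) were near it. Of 7 assembly factors, which put dynein arms together in the cytoplasm, 3 were lower in WT and 5 in Tg: Pih1d2 (-2.40 ± 0.32), Lrrc6 (-2.09 ± 0.24) and Zmynd10 (-1.39 ± 0.29) in WT. All 16 other markers of multiciliated cells were lower in both genotypes, with the largest falls in WT for Sec14l3 (-4.13 ± 0.28), Tmem212 (-3.48 ± 0.30) and Ccdc153 (-3.24 ± 0.27).

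Of 19 genes of intraflagellar transport, which many cells without motile cilia also use, 7 were lower and 3 higher in WT and 9 lower and 2 higher in Tg (median -0.31 and -0.53). Over this step 3481 of all 28940 features were called lower and 4051 higher in WT, and 4040 lower and 4637 higher in Tg. The counts of higher genes in this list are near that overall share. Traf3ip1 (-1.11 in WT and -1.15 in Tg) and Dync2li1 (-0.83 and -1.60) were lower in both, and Ift140 was higher in WT (0.91, limma adjusted p = 0.000328) but not called in Tg (0.28, 0.303). Of 11 spermatid genes that airway cilia do not use, 0 were called in WT (limma), and in Tg only Gapdhs was, at -1.11, with 10 of the 11 near background in all groups. The differences between lists were not tested. Without the library labelled Tg, replicate 3, the Tg counts of lower genes were 9 of 10 for the outer arm (median -1.04), 13 of 15 for the inner arms and nexin link (-1.48), 5 of 7 for the radial spoke (-2.48), 8 of 11 for the central pair (-0.998), 14 of 15 for the doublets (-1.54), 4 of 7 for assembly (-1.41), 16 of 16 for other markers (-2.40), 10 of 19 for intraflagellar transport (-0.55) and 1 of 11 for the spermatid list (-0.05).

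**Figure D3:**
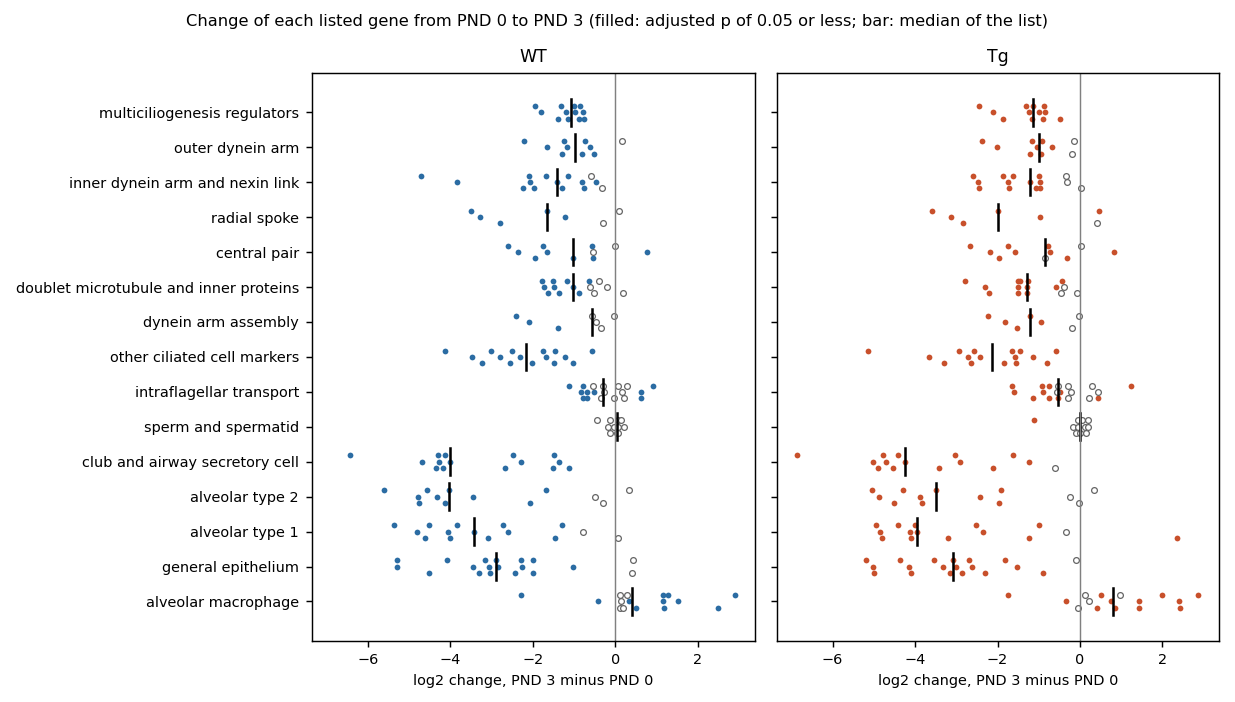
Log2 change of each listed gene from PND 0 to PND 3 (points; filled where the adjusted p is 0.05 or less, open otherwise) with the median of its list (black bar), in WT (left) and Tg (right). The lists of motile cilium roles have medians of -0.57 to -2.16 in WT, the club, alveolar and general epithelial lists have medians of -2.89 to -4.03, and the spermatid list lies at 0.04.

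Other epithelial transcripts fell over the same days. All 15 club and airway secretory genes were lower in WT and 14 in Tg (median -4.02 and -4.24), 10 of 13 alveolar type 2 genes in each (-4.03 and -3.49), 13 of 15 alveolar type 1 genes in each (-3.43 and -3.95) and 17 and 18 of 19 general epithelial genes (-2.89 and -3.08), against medians of -1.66 and -2.02 for the 9 ciliated transcripts. The largest falls in WT were, by list, those of the mucin Muc5b (-6.42 ± 0.27), Cyp2f2 (-4.69 ± 0.34) and Reg3g (-4.36 ± 0.35) among club genes, of Cxcl15 (-5.61 ± 0.37), Slc34a2 (-4.78 ± 0.31) and Sftpb (-4.77 ± 0.30) among alveolar type 2 genes, of Krt7 (-5.37 ± 0.23), Gprc5a (-4.80 ± 0.23) and Emp2 (-4.62 ± 0.29) among alveolar type 1 genes, and of Krt18 (-5.29 ± 0.27), Krt8 (-5.28 ± 0.36) and Ehf (-4.53 ± 0.41) among general epithelial genes. The mean of the 9 ciliated transcripts started at 4.65 to 6.21 per array and that of the club genes at 8.01 to 9.11, and falls end at background for many genes of both, so that the sizes of the falls are not compared between lists. Without the library labelled Tg, replicate 3, the Tg counts of these epithelial lists were the same, with medians of -4.45 (club), -3.85 (alveolar type 2), -4.05 (alveolar type 1) and -3.39 (general).

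At PND 3 in WT 8 of the 9 ciliated transcripts were near background, as were 7 of 15 club, 7 of 13 alveolar type 2, 8 of 15 alveolar type 1 and 13 of 19 general epithelial genes. The ciliated transcripts had started lower (WT mean at PND 0 of 5.49, against 8.49 for the club genes), so that these counts do not compare the losses. Scgb1a1, the club cell secretoglobin whose promoter drives the transgene, read 11.6 at PND 0, 9.15 at PND 3, 5.98 at PND 10 and 7.52 at PND 42 in WT, and was higher in Tg at PND 42 (2.02 ± 0.43, limma adjusted p = 0.00299). The surfactant gene Sftpc read 11.3 at PND 0 and 6.99, 7.12 and 6.40 later in WT. At PND 42 in SPF housing 5 of 15 club genes were higher in Tg, as were 787 of all 28940 features. The list mean per array of the club genes was 4.73 to 5.11 in Tg against 4.30 to 4.51 in WT. That of the 8 ciliated transcripts without Tppp3 was 3.19 to 3.28 in Tg and 3.18 to 3.25 in WT.

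**Figure D4:**
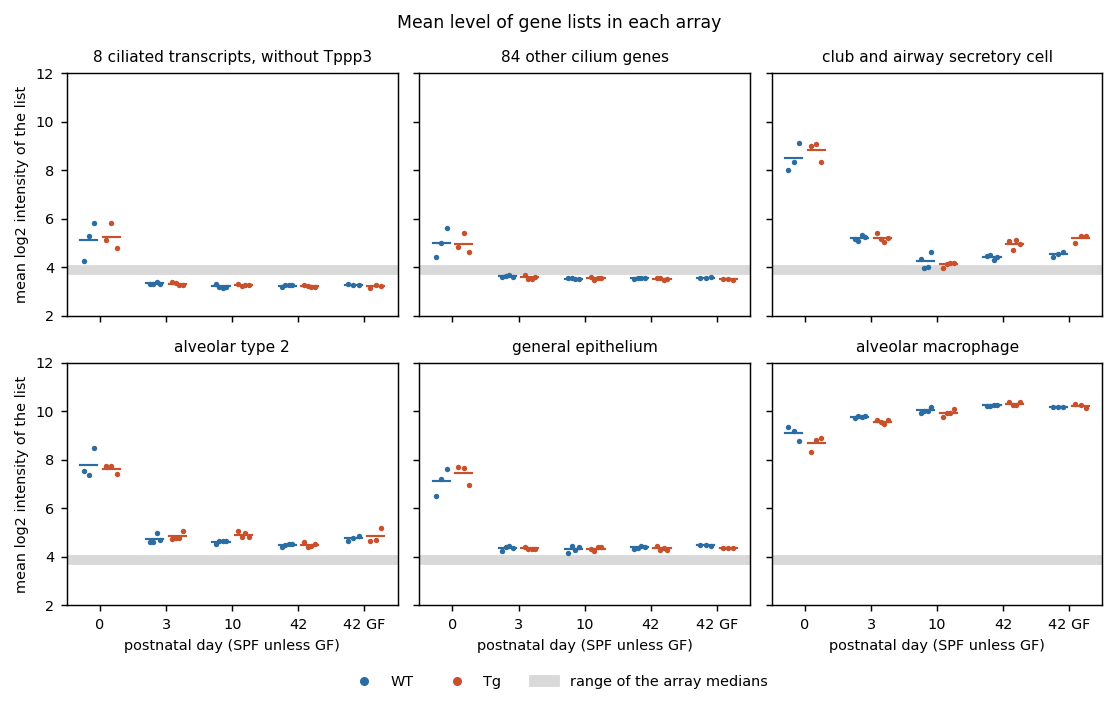
Mean log2 intensity of 6 gene lists in each array (points) with group means (bars), by postnatal day, in WT (blue) and Tg (orange); the grey band is the range of the array medians. The 8 ciliated transcripts lie below the band in all arrays after PND 0, the club cell list falls to 3.97 in its lowest array of PND 10 and is higher in Tg at PND 42, and the alveolar macrophage list lies between 8.33 and 10.4.

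Over the 36 arrays, the annotated genes most like the mean of the 9 transcripts were Ak7 (Pearson r = 0.98), Aox3 (0.98), Erbb2 (0.98), Itprip (0.98) and Clic6 (0.98). Ak7 is an adenylate kinase of the central pair, Erbb2 a receptor tyrosine kinase of epithelial cells, Aox3 an aldehyde oxidase and Clic6 a chloride intracellular channel protein. In WT they read 5.63 to 6.77 at PND 0 and 3.30 to 3.45 at PND 3. The gene most like Tppp3, looked up after its values were seen, was the epithelial adhesion gene Epcam (r = 0.86), which read 7.03 at PND 0, 4.14 at PND 3, 4.41 at PND 10 and 6.77 at PND 42 in WT. Patj (0.85), Ezr (0.84), Fkbp4 (0.83) and Nfix (0.83) came next. The mean of the 19 general epithelial genes, Epcam among them, did not share that later rise. It was 4.33 at PND 10 and 4.40 at PND 42 in WT, and 4.35 in Tg at PND 42. Epcam was lower in Tg at PND 42, with a difference of -2.10 ± 0.24 in SPF housing (limma adjusted p = 5.43e-07) and of -1.5 ± 0.28 in GF housing (0.000808).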

How the data were processed

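RNA of Ly-6G-depleted lavage cells (12 ng per array, amplified) was hybridised to 36 Affymetrix Mouse Gene 1.0 ST arrays. The authors deposited log2 intensities made with RMA (background adjustment, quantile normalization, median polish) in Partek, version 6.5 per the labels; no column was left unused (0 columns). Of 35556 rows, 6616 numbered below the first annotated feature were presumed to be controls and left out, which leaves 28940. The number of arrays limits the precision.

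limma 3.58.1 (R 4.3.3) was fitted to all 36 arrays with 1 mean per group. p-values are two-sided, and those of a contrast were adjusted by Benjamini-Hochberg over all features and called at 0.05; the procedure was tested on simulated data. Named were all 10 genes, up to 3 called genes with the largest WT change per list, list genes called elsewhere, the 5 genes most like the mean of the 9 and the 5 most like Tppp3. The genes, lists and comparisons were chosen with earlier results of these data known. Lists came from textbook knowledge. Alternatives changed the samples fitted, weights, normalization, variance prior, filters, call limit, replicate block and each array in turn. Whether replicates come from separate litters is not given in the sources used here. Promoter sequences are RefSeq's.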

Additional observations from a re-analysis of the deposited data

Results flagged for a closer look

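Among 54 groups of 4 arrays of the 9 transcripts, 3 held an array far from the others of its group, and chance alone gives such a gap in about 1 of 20 groups. Dnah9 read 3.61 in Tg mice of PND 42, replicate 1, against 3.35 to 3.36 in the other arrays of that group. Spag17 read 3.48 in WT mice of PND 3, replicate 3, against 3.27 to 3.31, and 3.50 in WT mice of PND 42, replicate 4, where the other arrays all read 3.38. All of these values lie at or below the array medians.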

How the results depend on the processing

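The count of 9 of 9 transcripts lower at PND 3 was the same in both genotypes with each array left out and under each other alternative, with these exceptions. In a fit on the compared groups alone 8 of 9 were called in WT, without Tekt1. A filter on dim features left 1 transcript, Tppp3, to test, which was called in WT (1) and in Tg (1); it left 23 other cilium genes, of which 15 were called lower in WT and 15 in Tg. The calls after PND 3 (2, both Tppp3) numbered 1 in a fit on the compared groups alone, 1 with all rows kept and 0 at an adjusted p of 0.01, were 3 with array weights and 3 with weights by group variance, which added Rsph1, and with 1 array left out there were 1 to 2. The genotype calls (2, both Tppp3) numbered 1 in a fit on the compared groups alone and 1 at an adjusted p of 0.01, were 3 with array weights, which added Tppp3 at PND 10, and with 1 array left out there were 1 to 3. The count of genotype differences in the fall, 0, was 0 to 1 with 1 array left out. No called value changed sign. Values that were not called did: with 1 array left out, the Tppp3 difference between genotypes at PND 0 ran from -0.26 to 0.44 and its housing difference in Tg from -0.66 to 0.24, and Hydin at PND 0 went from 0.06 to -0.57, then called, without WT replicate 1. Same-numbered arrays of WT and Tg deviated with correlations of -0.126 to 0.244. Such correlations cannot tell whether same-numbered arrays share a litter or a batch. With the replicate number as a block, 9 of 9 transcripts were called lower in WT and in Tg and the counts of later and of genotype calls were both 2. Each transcript had a single feature with its symbol alone, so that another choice of feature gave no value. The files hold no detection call, and the level of 8 transcripts after PND 0 is a reading near background.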
